A study of Rattus norvegicus with 40 samples.

Results

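Tumor nodules were compared with the non-tumor (NT) liver around them in the same 4 rats, F03, H25, H26 and H28, at 20 weeks. These samples made up 12 of the 40 libraries of the study: 1 library of NT liver and 2 libraries of separate nodules (nodule 1 and nodule 2) from each rat, all labelled as liver. The rats were Fischer 344 males that were 7 weeks old when weekly intra-peritoneal injections of 50 mg/kg diethylnitrosamine (DEN) began, and they had received DEN for 14 weeks and then none for 6 weeks. NT liver and nodules therefore shared the same DEN exposure. Every rat was included through its labels (DEN, week 20, status NT, T1 or T2), and both nodules of an animal were pooled by adding their counts. Age-matched liver from 4 rats without DEN (H13 to H16, called untreated) is given below only as a reference level. The same nodule comparison in 4 other rats, taken after 14 weeks of injections, served to ask whether the contrast differed between the times. The study also holds libraries from 8 weeks of injections and from untreated rats of other ages, which were not used here. Polyadenylated RNA was sequenced.

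DEN is activated in hepatocytes by cytochrome P450 enzymes and leaves alkylated bases in their DNA. In rats the first altered hepatocytes are known from foci that gain the placental glutathione S-transferase Gstp1 and the gamma-glutamyl transferase Ggt1 and that lose enzymes of drug metabolism. Nodules arise from such foci, and the tissue around them is itself fibrotic and scattered with further foci, so that it is no normal liver.

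Between 23686378 and 160622633 read pairs were counted per library (median 32940740), with NT liver of H26 at the top and the next library at 39355849. The libraries carried hepatocyte markers at high levels in both tissues, and the 8 hepatocyte genes checked summed to 260861 to 334566 CPM in NT liver and 149035 to 287476 CPM in nodules (CPM, counts scaled to a common library size with TMM factors). A pair of libraries stood apart. Nodule 1 of F03 had 16.3% of its pairs aligned to several places, against at most 10.9% in the other 11 libraries, and its ribosomal protein genes summed to 26681 CPM, against 13069 to 19198 CPM. Nodule 2 of H25 lay closest to NT liver, as described for the single nodules. Without nodule 1 of F03 1716 genes were called, without nodule 2 of H25 2070 and without both 2061, against 1693 with all libraries, as described next. The 4 values of NT liver are listed throughout in the order F03, H25, H26 and H28.

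Of 11546 genes tested, 1063 were higher in nodules and 630 were lower (edgeR quasi-likelihood test with the rat as a block, with an absolute log2 fold change of 0.5 or more and a Benjamini-Hochberg adjusted p of 0.05 or less). This was 14.7% of the genes tested, with 9.21% called higher and 5.46% called lower, while the median log2 fold change of all genes was -0.015. The direction was the same in all 4 rats for 1034 of the genes called higher and for 604 of those called lower. The calls depended on comparing each nodule with the liver of its own rat: without the rat as a block no gene was called, although 2767 genes had an unadjusted p of at most 0.05 (4715 with the block). Leaving out H26 gave 1070 genes and leaving out any other rat 1398 to 2078. In bulk tissue, fewer cells of a type and less RNA per cell cannot be told apart.

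Markers of preneoplastic lesions were among the clearest differences. Of 20 markers tested, 11 were higher and 1 lower, with a median log2 fold change of 1.02. Gstp1, which conjugates glutathione to electrophiles and stains rat preneoplastic foci, measured 630.5, 607, 1351 and 1455 CPM in NT liver. The 8 nodules held 3439 and 2259 CPM in F03, 2052 and 838 in H25, 2956 and 3289 in H26 and 2533 and 4878 in H28. Every nodule lay above the NT liver of its own rat, and 7 of 8 lay above all 4 NT livers (log2 fold change 1.47, SE 0.16, adjusted p = 5.23e-05). Untreated liver held 8.09 to 12.1 CPM, below all 4 NT livers.

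Ggt1, the enzyme that opens extracellular glutathione breakdown, was at 6.46, 7.08, 16.2 and 19.1 CPM in NT liver and from 12.6 to 83.9 CPM (median 40.01) in nodules. Again all 8 nodules were above their own NT liver and 7 of 8 were above every NT liver (log2 fold change 1.88, SE 0.098, adjusted p = 1.05e-07), with untreated liver at 0.42 to 0.639 CPM. Akr1b8, an aldo-keto reductase that removes reactive aldehydes, went from 70.1, 61.1, 174 and 173 CPM in NT liver to between 118 and 896 CPM (median 383) in nodules (log2 fold change 1.99, SE 0.096, adjusted p = 8.39e-08). The single nodule that overlapped NT liver was nodule 2 of H25 at 118 CPM. The glutathione peroxidase Gpx2 (29.5 ± 13.4 CPM in NT liver and 92.8 ± 36.2 in nodules, SD, n = 4, log2 fold change 1.67, SE 0.10) and Anxa2, a calcium-dependent membrane-binding protein (40.00 ± 15.3 CPM in NT liver and 122 ± 44.7 in nodules, log2 fold change 1.61, SE 0.078), showed the same arrangement.

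The markers did not all move. Akr1b10 rose by 1.45 (SE 0.15) on the log2 scale but stayed low (1.44 ± 0.932 CPM in NT liver and 3.69 ± 1.83 in nodules), and its nodules overlapped NT liver in 4 of 8 cases. With nodule 1 alone its log2 fold change was 0.67 (adjusted p = 0.263). Gpc3, an oncofetal proteoglycan of the cell surface, rose from 1.93, 1.62, 1.86 and 5.89 CPM to between 1.43 and 11.1 CPM (median 5.21, log2 fold change 1.19, SE 0.30, adjusted p = 0.0304). Its call was lost without F03 (adjusted p = 0.166) and with nodule 1 alone (0.74, adjusted p = 0.253), and NT liver of H28 was already within the range of the nodules. Afp, the fetal albumin-like protein used as a serum marker of liver cancer, did not pass: NT liver held 32.1, 29.4, 25.2 and 29.2 CPM, nodules lay from 20.5 to 59.03 CPM (median 30.01), and untreated liver lay at 29.6 to 38.9 CPM (log2 fold change 0.13, SE 0.17, adjusted p = 0.62). Only 4 of 8 nodules were above their own NT liver, nodule 1 of H26 by the most at 59.03 CPM. The aldehyde dehydrogenase Aldh3a1 had a large difference (log2 fold change 2.06, SE 0.49, adjusted p = 0.0551) without passing the test, and the protease inhibitor Spink1 was the marker called lower (log2 fold change -0.81, SE 0.16, adjusted p = 0.00741).

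**Figure D1:**
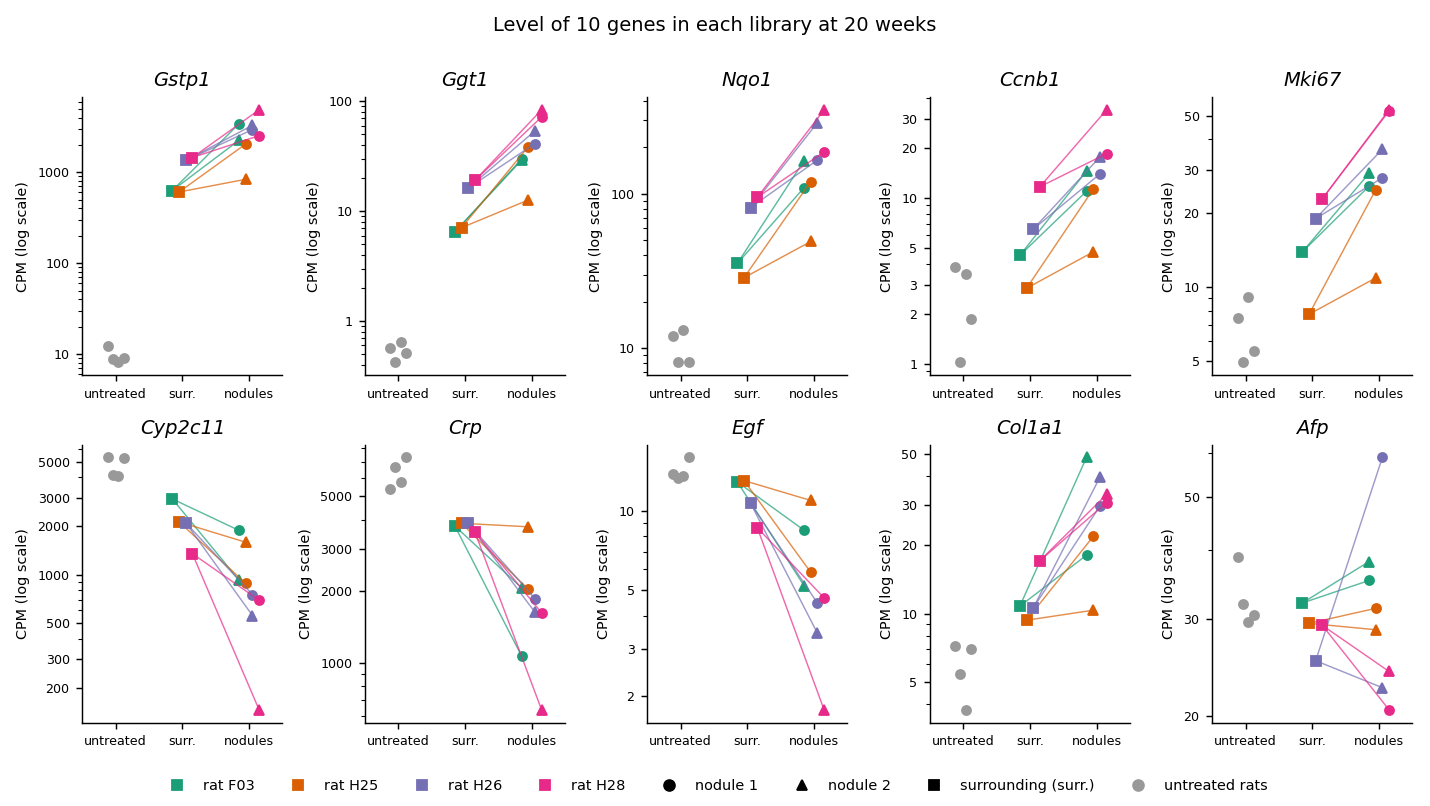
Level in CPM (log axis) of 10 genes in each library at 20 weeks, with untreated rats in grey, NT liver (surr.) as squares and the nodules as circles (nodule 1) and triangles (nodule 2), and lines joining each nodule to the NT liver of its rat. In Gstp1, Ggt1, Nqo1, Ccnb1 and Mki67 all 8 lines rise, in Cyp2c11, Crp and Egf all 8 fall, and in Afp 4 rise and 4 fall.

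Among the genes with at least 1 CPM on average in the higher tissue and the same direction in all 4 rats, the largest rises were seen in Espn, Dnaaf1 and Ly6i. Espn, which codes for the actin-bundling protein espin, was at 0.143, 0.0919, 0.548 and 1.302 CPM in NT liver and from 0.253 to 10.4 CPM (median 3.49) in nodules (log2 fold change 3.20, SE 0.24, adjusted p = 3.51e-06). Vwa7 was at 1.03, 0.766, 2.13 and 2.29 CPM in NT liver and from 2.53 to 22.6 CPM (median 7.99) in nodules (log2 fold change 2.51, SE 0.13, adjusted p = 1.05e-07). All 8 nodules were above every NT liver for Vwa7 and 6 of 8 for Espn. Slc15a1, the proton-coupled peptide transporter of the gut and kidney, rose by 2.55 (SE 0.18), the transcriptional coactivator Cited1 by 2.59 (SE 0.21) and the kinase Dyrk3 by 2.34 (SE 0.24) on the log2 scale.

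Dnaaf1, which codes for an assembly factor of the dynein arms of cilia, was uneven across nodules, with 23.5 and 41.5 CPM in F03, 78.8 and 6.21 in H25, 57.2 and 88.7 in H26 and 33.6 and 237 in H28. NT liver held 5.89, 2.39, 22.9 and 21.5 CPM and untreated liver at most 0.0532 (log2 fold change 2.63, SE 0.39, adjusted p = 0.0162). Without F03 its adjusted p was 0.111 at a log2 fold change of 2.67. Klhl14 (2.36), the neuropeptide Y receptor Npy1r (2.40), Bcas1 (2.38), the serine protease Tmprss4 (2.43), the spindle-positioning protein Misp (2.52) and Ly6i (2.62) completed the 12 largest log2 rises. Each of these last 6 had 1 or 2 of the 8 nodules below the NT liver of its own rat, as did Cited1, which had 1. With nodule 1 alone Npy1r was at 0.92 and missed the test (adjusted p = 0.135). The call of Ly6i was lost without F03 (adjusted p = 0.166).

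Genes of mitosis and of the G2/M transition rose nearly as a whole. Of 28 tested, 27 were called higher and none lower (median log2 fold change 0.96), and the remaining kinesin, Kif11, was just short of the fold threshold at 0.49. Ccnb1, the cyclin that drives entry into mitosis, was at 4.49, 2.85, 6.46 and 11.7 CPM in NT liver and from 4.72 to 33.9 CPM (median 14.2) in nodules (log2 fold change 1.36, SE 0.094, adjusted p = 1.05e-06). All 8 nodules exceeded their own NT liver, but only 5 of 8 exceeded every NT liver, since NT liver of H28 was already at 11.7 CPM. Cenpf, a protein of the kinetochore (log2 fold change 1.43, SE 0.11, adjusted p = 3.51e-06), and Kif20a, a kinesin of cytokinesis (log2 fold change 1.22, SE 0.098, adjusted p = 3.51e-06), rose by similar amounts.

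Mki67, which codes for the Ki67 antigen of cycling cells, was at 13.9, 7.72, 18.99 and 22.9 CPM in NT liver. The nodules held 25.8 and 29.04 CPM in F03, 24.9 and 10.9 in H25, 27.9 and 36.4 in H26 and 52.2 and 52.8 in H28. The ratio to the NT liver of the same rat was highest in nodule 1 of H25 and lowest in nodule 2 of H25 (log2 fold change 1.02, SE 0.084, adjusted p = 3.94e-06). Untreated liver lay at 4.91 to 9.05 CPM.

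DNA replication genes moved less. Of 31 tested, 11 were higher and none lower (median 0.40), and without H26 or H28 only 5 or 6 were called. The count was 4 with nodule 1 alone, 5 with nodule 2 alone and 6 with each nodule as its own library. Rrm2, the small subunit of ribonucleotide reductase, rose from 4.96, 3.49, 8.53 and 9.17 CPM to between 5.199 and 18.2 CPM (median 11.5, log2 fold change 0.81, SE 0.093, adjusted p = 6.33e-05). The replication helicase subunits Mcm5 (0.79, SE 0.13) and Mcm6 (0.66, SE 0.11) and the transcription factor E2f1 (0.75, SE 0.15) also rose on the log2 scale.

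Genes of G1 and of cell-cycle arrest were mostly below the threshold, with 3 of 23 higher and 1 lower. The largest rise was that of Cdkn2a, whose products hold the retinoblastoma protein active and stabilize p53: NT liver held 0.285, 0.214, 0.685 and 0.558 CPM and the nodules lay from 0.253 to 3.59 CPM (median 1.56, log2 fold change 1.87, SE 0.24, adjusted p = 0.000147). Its neighbor Cdkn2b, a further inhibitor of the G1 kinases, rose by 0.87 (SE 0.12) and the phosphatase Cdkn3 by 0.75 (SE 0.19), the latter with an adjusted p of 0.0905 without H26. For Cdkn2a all 8 nodules were above their own NT liver. Rbl2, a pocket protein of quiescent cells, fell by 0.52 (SE 0.075) and no longer reached the fold threshold without H26 or H28 (-0.47 and -0.46). Ccnd1, the G1 cyclin, was at 79.2, 70.1, 85.2 and 75.2 CPM in NT liver and from 78.1 to 120.3 CPM (median 97.3) in nodules, and its difference was significant but under the fold threshold (log2 fold change 0.37, SE 0.08, adjusted p = 0.00469).

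Short sequence elements were searched in the promoters of the mitotic genes. In the RefSeq promoter sequences of build GRCr8, which span 250 bases before to 50 bases after the annotated start, 22 of the 27 called mitosis and G2/M genes had an entry. The cell-cycle homology region (CHR, searched as TTTGAA or TTCGAA on both strands), a site of DREAM and MuvB complexes, was found in 17 of these 22 promoters (77.3%), against 13.6% of the 8786 promoters of tested genes that had an entry and 19.7% of all 33469 promoters. CCAAT, the box bound by NF-Y, was found in 81.8% of them, against 37.9% and 37.5%. The E2F motif (TTTCCCGC, TTTGGCGC, TTTCGCGC or TTTGCCGC) was found in 4.55%, against 3.92% and 2.14%. These shares describe the letters in these windows and were not tested.

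The 3 promoters below are shown because they carry these elements in different arrangements: Ccnb1 and Prc1 were among the 6 genes with the smallest adjusted p for a difference between the times, and Mki67 is the marker of cycling cells. Capitals mark CHR and CCAAT matches on either strand. Ccnb1 (chr2:33655176-33655475, minus strand) had 2 CCAAT boxes and neither of the CHR strings searched, and other forms of the CHR were not searched. Prc1 (chr1:143659231-143659530, plus strand) had 2 CCAAT boxes and 1 CHR match. Mki67 (chr1:199952544-199952843, minus strand) had 4 CCAAT boxes and 2 CHR matches, the last CHR overlapping the last CCAAT box.
Ccnb1: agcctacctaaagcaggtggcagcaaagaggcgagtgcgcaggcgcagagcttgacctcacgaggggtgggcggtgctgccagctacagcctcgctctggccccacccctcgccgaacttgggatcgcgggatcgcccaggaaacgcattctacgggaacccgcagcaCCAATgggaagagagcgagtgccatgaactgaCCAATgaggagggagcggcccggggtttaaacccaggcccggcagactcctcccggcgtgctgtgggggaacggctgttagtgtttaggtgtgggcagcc
Prc1: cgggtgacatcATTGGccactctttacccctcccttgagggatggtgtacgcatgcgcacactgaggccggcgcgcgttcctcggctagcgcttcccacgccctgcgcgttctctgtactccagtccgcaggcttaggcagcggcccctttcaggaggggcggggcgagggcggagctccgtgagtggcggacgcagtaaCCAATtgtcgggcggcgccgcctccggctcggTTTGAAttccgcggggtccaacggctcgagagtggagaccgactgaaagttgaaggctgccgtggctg
Mki67: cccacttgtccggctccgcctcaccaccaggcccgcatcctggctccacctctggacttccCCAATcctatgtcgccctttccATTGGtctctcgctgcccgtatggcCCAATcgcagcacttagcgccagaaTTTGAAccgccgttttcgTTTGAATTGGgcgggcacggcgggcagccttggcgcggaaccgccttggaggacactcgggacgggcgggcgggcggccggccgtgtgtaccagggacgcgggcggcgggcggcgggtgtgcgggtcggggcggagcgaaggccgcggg

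Targets of NRF2, the transcription factor that switches on glutathione synthesis and detoxification, were higher in most cases. Of 30 tested, 21 were higher and none lower (median log2 fold change 0.72). Nqo1, the quinone reductase most used as a readout of NRF2, was at 35.4, 28.6, 81.6 and 95.1 CPM in NT liver, and the nodules held 109.8 and 164 CPM in F03, 120.3 and 49.2 in H25, 166 and 289.7 in H26 and 187 and 351 in H28. All 8 nodules were above their own NT liver (log2 fold change 1.63, SE 0.097, adjusted p = 2.3e-07), and untreated liver lay at 8.09 to 13.1 CPM. The sulfiredoxin Srxn1 rose by 1.39 (SE 0.10) and Gclc, the catalytic subunit of the first enzyme of glutathione synthesis, by 1.13 (SE 0.11). The cystine importer Slc7a11 had the largest log2 fold change of the list (2.06). Hmox1 (0.21), Me1 (0.12) and Osgin1 (0.079) did not pass.

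Of the 21 called NRF2 genes 18 had a promoter entry, and the antioxidant response element (ARE, TGACNNNGC, both strands) was found in 5 of them (27.8%), against 14.9% of promoters of tested genes and 12.1% of all promoters. Nqo1, Srxn1, Gclc and Slc7a11 were among these 18 and held no match in the window. Gpx2 (chr6:101229984-101230283, minus strand) was among the 18, and Gstp1 (chr1:210769656-210769955, minus strand) was not. The promoters of these last genes, both with large rises, are shown as examples that held the element, in capitals. It begins 61 bases before the start of Gstp1 and, on the opposite strand, 13 bases before that of Gpx2.
Gstp1: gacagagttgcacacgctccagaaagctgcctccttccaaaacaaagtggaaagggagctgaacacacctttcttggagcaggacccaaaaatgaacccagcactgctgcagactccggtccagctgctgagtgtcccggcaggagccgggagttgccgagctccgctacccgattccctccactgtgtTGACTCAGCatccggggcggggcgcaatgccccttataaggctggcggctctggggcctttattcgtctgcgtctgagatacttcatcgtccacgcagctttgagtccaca
Gpx2: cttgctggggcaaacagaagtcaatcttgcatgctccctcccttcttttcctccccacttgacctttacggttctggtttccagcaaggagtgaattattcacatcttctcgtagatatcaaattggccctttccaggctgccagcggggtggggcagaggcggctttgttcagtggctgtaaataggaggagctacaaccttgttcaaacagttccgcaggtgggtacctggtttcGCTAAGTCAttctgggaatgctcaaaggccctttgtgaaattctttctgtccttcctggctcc

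Of 27 genes of the ER stress and amino acid response 9 were higher and 1 lower, but the list as a whole had a median of -0.087, with 13 of 27 positive, and 0.14 with nodule 1 alone. Among those that rose were Mthfd2 of mitochondrial folate metabolism (log2 fold change 1.29, SE 0.11, adjusted p = 5.19e-06) and Psat1 of serine synthesis (0.98, SE 0.11), together with the stress regulators Ddit4 (1.12, SE 0.094) and Atf3 (1.02, SE 0.10). The chaperone genes Hspa5 (-0.25) and Hsp90b1 (-0.12) and the transcription factor gene Xbp1 (-0.35) were not called. The count of lower genes was 4 without H25 and 0 without H28. Among AP-1 and immediate early genes 5 of 21 rose (2 without H26), including the small Maf protein Maff (7.03, 8.06, 11.9 and 7.097 CPM in NT liver, from 10.3 to 24.9 CPM with a median of 18.5 in nodules, log2 fold change 1.10, SE 0.12), while Jun (0.13), Junb (0.082) and Egr1 (0.12) did not pass.

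Of 11 oncofetal and progenitor genes 5 were higher (median 0.53). Without H26 the count was also 5 but the median was 0.031, and with nodule 1 alone 3 were higher with a median of 0.25. Sox9, a transcription factor of bile duct and progenitor cells, was at 3.35, 3.09, 5.11 and 4.74 CPM in NT liver and from 4.64 to 16.6 CPM (median 11.5) in nodules (log2 fold change 1.41, SE 0.11, adjusted p = 2.37e-06). Sox4, a related factor of progenitors, was at 7.205, 7.200, 12.8 and 13.2 CPM in NT liver and from 10.7 to 46.5 CPM (median 24.3) in nodules (log2 fold change 1.38, SE 0.09, adjusted p = 5.65e-07). For both, 7 of 8 nodules lay above every NT liver. Epcam, an adhesion molecule of biliary and progenitor cells, rose by 0.90 (SE 0.084). Igf2 (0.78) and H19 (0.21) did not pass, and Mest (0.53) was lost without H25 or H28 (adjusted p = 0.094 and 0.0995) and with nodule 1 alone (0.19, adjusted p = 0.529).

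Krt19, a keratin of bile ducts, rose from 11.6, 9.99, 21.5 and 19.1 CPM in NT liver to 42.7 and 40.3 CPM in F03, 49.1 and 18.4 in H25, 80.8 and 108 in H26 and 119 and 114 in H28 (log2 fold change 2.08, SE 0.15, adjusted p = 8.79e-05). The nodules of H26 and H28 held the most and nodule 2 of H25 the least. Of the 8 cholangiocyte markers tested, Krt19, Sox9, Epcam and Cldn4 were higher (Cldn4 was lost without F03 or H26, adjusted p = 0.123 and 0.136), while Spp1 (0.53), Muc1 (0.48) and Cftr (0.44) were among those that did not pass. The 9 markers present in the files, 1 of them below the filter, summed to 62.99 to 91.1 CPM in NT liver and 76.3 to 251 CPM in nodules. Whether these transcripts came from bile duct cells or from altered hepatocytes was not tested.

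Many of the genes that fell code for enzymes and secreted proteins of the mature liver. Against the 5.46% of all genes called lower, the lists that exceeded this share most on the low side were sex-biased liver genes (17 of 26 lower, median -0.87), cytochrome P450 families 1 to 4 (23 of 41, -0.66), urea cycle and periportal enzymes (9 of 17, -0.62), plasma and acute-phase proteins (14 of 29, -0.51), fatty acid oxidation and ketogenesis (12 of 26, -0.45) and bile acid synthesis and transport (10 of 26, -0.44). The falls were smaller than the rises. The deepest of the 12 largest, Rgs16, was at -1.44 on the log2 scale.

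**Figure D2:**
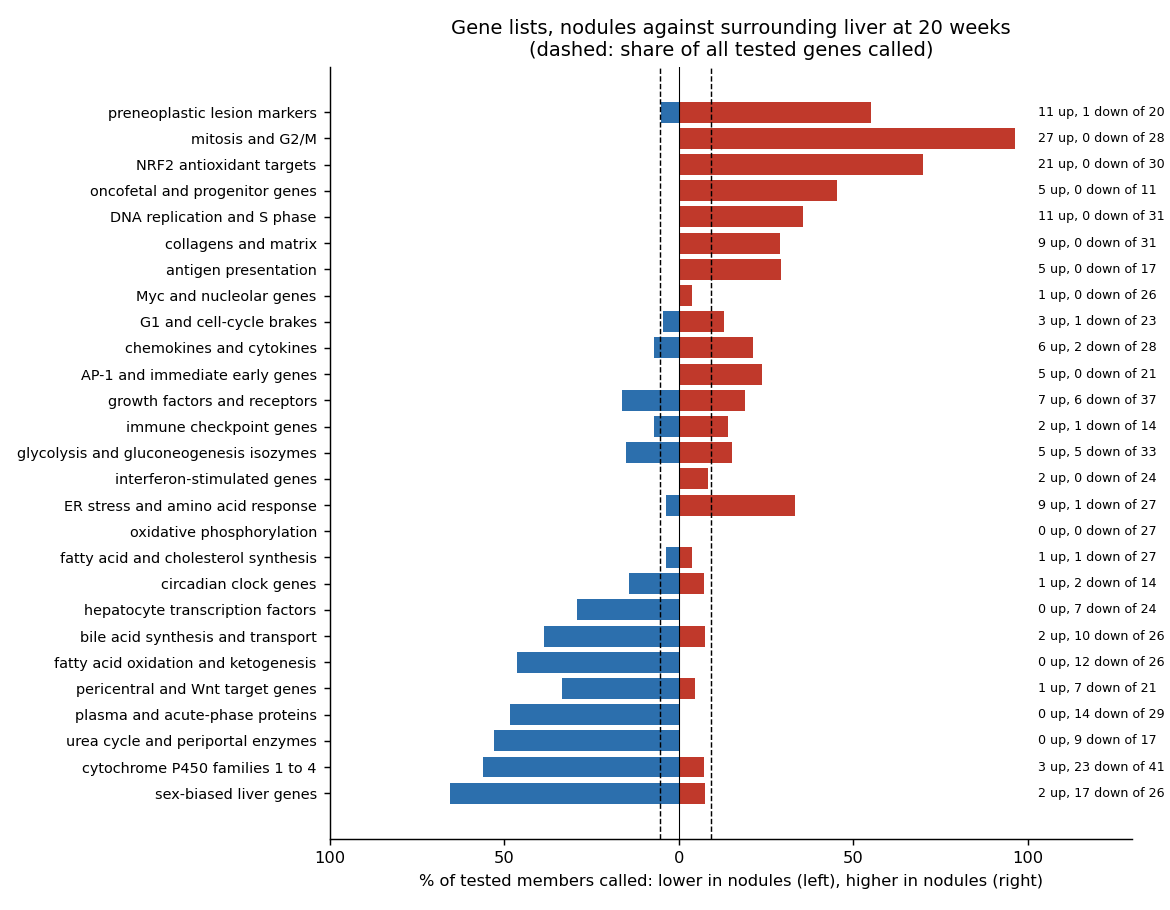
Share of the tested members of each gene list that was called higher (right, red) or lower (left, blue) in nodules than in NT liver at 20 weeks, ordered by the median log2 fold change, with dashed lines at the share of all tested genes called higher (9.21%) and lower (5.46%). Mitosis and G2/M genes reach 27 of 28 higher, sex-biased liver genes 17 of 26 lower, and no oxidative phosphorylation gene is called.

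Cyp2c11, the main P450 of the male rat liver, measured 2939.6, 2120.2, 2095 and 1348 CPM in NT liver. The nodules held 1877 and 923 CPM in F03, 882 and 1586 in H25, 753 and 559 in H26 and 695 and 146 in H28. Every nodule was below its own NT liver and 6 of 8 were below all NT livers, nodule 2 of H28 by far the lowest (log2 fold change -1.35, SE 0.17, adjusted p = 0.000297). Untreated liver held 4075 to 5323 CPM.

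Cyp4a2, a fatty acid hydroxylase, fell from 143, 515, 367 and 224 CPM to between 32.5 and 436 CPM (median 93.6, log2 fold change -1.39, SE 0.23, adjusted p = 0.00733), and Cyp2a1, a steroid hydroxylase, from 319, 341, 323 and 256 CPM to between 84.2 and 306 CPM (median 177, log2 fold change -0.89, SE 0.12, adjusted p = 0.000241). Both were lower in 8 of 8 nodules than in the NT liver of the same rat. Cyp2d3 (-0.75, SE 0.12) and Cyp2d4 (-0.52, SE 0.08) fell less, and Cyp2d4 was under the fold threshold without H26 or H28 (-0.45 and -0.45). The 3 P450 genes called higher were Cyp2c24 (1.05), Cyp4b1 (0.88) and Cyp2c12 (0.82), the last a P450 predominant in female rats. Without H26, 14 of the 41 genes were called lower. P450 genes of a subfamily are close in sequence and pairs that matched several places were not counted, so the split among them is uncertain.

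Other genes set by the pulsatile growth hormone of males also fell, among them the steroid dehydrogenase Hsd3b5 (138 ± 17.1 CPM in NT liver and 69.95 ± 24.5 in nodules, log2 fold change -1.004, SE 0.12). Socs2, the feedback inhibitor of growth hormone signaling, was lower in nodules (log2 fold change -0.76, SE 0.087, adjusted p = 5.81e-05) although NT liver, at 32.6, 78.9, 57.5 and 11.5 CPM, ranged widely between rats. Igf1, the growth factor induced by growth hormone, fell from 435, 422, 497 and 352 CPM to between 137 and 433 CPM (median 265, log2 fold change -0.64, SE 0.13, adjusted p = 0.00292). It was lower in 7 of 8 nodules, nodule 2 of H25 being the exception.

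The 12 largest falls held further liver enzymes. The carbonic anhydrase Car3 fell from 1207, 1217, 1068 and 799.8 CPM to between 114 and 889 CPM (median 434, log2 fold change -1.32, SE 0.19, adjusted p = 0.00141) and the aldehyde oxidase Aox3 from 25.2, 39.7, 34.2 and 24.4 CPM to between 3.15 and 30.5 CPM (median 10.9, log2 fold change -1.32, SE 0.21, adjusted p = 0.00737), the latter with an adjusted p of 0.088 without F03 and 0.0562 without H26. Nox4, an NADPH oxidase, fell by 1.37 (SE 0.20), Stac3 by 1.34 (SE 0.18), Arhgef37 by 1.39 (SE 0.21), the tyrosine kinase Ptk6 by 1.39 (SE 0.27) and Rgs16, a brake on G protein signaling, by 1.44 (SE 0.36). Each of these was lower in all 8 nodules than in the NT liver of the same rat, except Ptk6, which was lower in 7. Stac3 was at -0.83 with nodule 1 alone and -2.14 with nodule 2 alone. The call of Ptk6 was lost without F03 (adjusted p = 0.0509) and Rgs16 without H26 or H28 (0.0889 and 0.066). Lrtm2 (-1.26), LOC298116 (-1.35) and LOC259244 (-1.28) were the others, and Lrtm2 was lost without F03 or H26 (0.116 and 0.0826).

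Of 26 bile acid genes 10 fell and 2 rose. Those that fell covered synthesis, uptake and the canalicular pump Abcb11 (-0.69), and included Slc27a5, which activates bile acids (1059, 985, 749.7 and 516 CPM in NT liver, from 121 to 853 CPM with a median of 405 in nodules, log2 fold change -1.01, SE 0.13, adjusted p = 0.000215), and Acox2, which shortens their side chain (log2 fold change -0.87, SE 0.12, adjusted p = 0.000218). The export pumps of the basolateral membrane rose. Abcc3 went from 33.1, 47.9, 80.99 and 66.97 CPM to between 63.3 and 172 CPM (median 111, log2 fold change 1.02, SE 0.11, adjusted p = 8.84e-05), with 1.98 to 2.702 CPM in untreated liver, and Abcc4 rose by 0.75 (SE 0.10). All 8 nodules followed these directions for Abcc3 and Slc27a5. Cyp7a1, the rate-limiting enzyme of bile acid synthesis, did not pass, with 9.59, 19.2, 33.2 and 46.1 CPM in NT liver and from 9.28 to 25.1 CPM (median 14.2) in nodules (log2 fold change -0.66, SE 0.21, adjusted p = 0.0659). It passed without F03 (log2 fold change -0.85, adjusted p = 0.00867), the rat whose NT liver was lowest, and without nodule 2 of H25 (adjusted p = 0.0383).

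Of 17 urea cycle and periportal enzymes 9 were called lower and 8 were not called (median log2 fold change of the list -0.62). Hal, which opens histidine breakdown, fell from 222, 192, 160.4 and 136 CPM to between 62.9 and 166 CPM (median 89.6, log2 fold change -0.85, SE 0.097, adjusted p = 5.55e-05). Slc25a15, the ornithine carrier of mitochondria (-0.62, SE 0.089), Gldc of glycine cleavage (-0.66, SE 0.10) and Otc, the ornithine transcarbamylase (-0.51, SE 0.10), fell less. Slc25a15 was at -0.997 with nodule 1 alone and -0.39 with nodule 2 alone, the latter not called (adjusted p = 0.0989). Otc was nonetheless lower in all 8 nodules than in any NT liver, but was not called without H26 (-0.47, adjusted p = 0.051) or without H28 (-0.43, under the fold threshold). Without H26, 4 of 17 genes of the list were called.

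Among plasma proteins, Crp, the C-reactive protein, was at 3759, 3859.6, 3858 and 3552 CPM in NT liver and at 1072 and 2069.7 CPM in F03, 2040.4 and 3731 in H25, 1867 and 1636 in H26 and 1626 and 637 in H28. All nodules but nodule 2 of H25 were below all NT livers (log2 fold change -1.10, SE 0.20, adjusted p = 0.00283). The clotting factor F9 (-0.72, SE 0.12), the complement component C4a (-0.89, SE 0.16) and Saa4 (-0.70, SE 0.13) fell too. Albumin itself fell by 0.51 (adjusted p = 0.0454) and transthyretin (Ttr) by 0.59 (adjusted p = 0.0184), and Alb was lost without F03, H26 or H28 (adjusted p = 0.211, 0.331 and 0.131) and Ttr without H26 or H28 (0.0964 and 0.0982) and with nodule 1 alone (-0.35, adjusted p = 0.152). Without H26, 5 of the 29 genes of the list were called, and without H28, 7.

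Of 21 pericentral and Wnt target genes 7 were lower and 1 higher. Axin2, a feedback target of Wnt signaling, fell from 8.42, 7.69, 9.01 and 12.3 CPM to between 4.67 and 8.31 CPM (median 6.15, log2 fold change -0.57, SE 0.13, adjusted p = 0.00711), and Notum, a secreted Wnt inhibitor, by 0.78 (SE 0.14). Cyp2e1, a pericentral P450, fell from 2411, 2496, 2065 and 1552 CPM to between 313 and 2118 CPM (median 1393, log2 fold change -0.84, SE 0.19, adjusted p = 0.00838). Axin2 and Cyp2e1 were lower in 8 of 8 nodules and Notum in 7 of 8, but without H26 Axin2 and Cyp2e1 were lost (adjusted p = 0.0518 and 0.0626), Axin2 was under the fold threshold without H28 (-0.38), and only 2 of the list were called lower without H26. Glul, the glutamine synthetase of the pericentral rim, did not reach the fold threshold (400.3, 460.2, 349 and 323 CPM in NT liver, from 215 to 438 CPM with a median of 298 in nodules, log2 fold change -0.34, SE 0.11, adjusted p = 0.0303). Rhbg, an ammonium transporter, was the gene called higher (0.67), and it was not called without F03 or H28. Without H25, 11 of the list were called lower.

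Energy metabolism moved in parts. Of 26 genes of fatty acid oxidation and ketogenesis 12 fell and none rose (5 fell without H26), among them Acsl1, which activates fatty acids (2165, 2770.3, 2674 and 2005 CPM in NT liver, from 531 to 2539 CPM with a median of 1188 in nodules, log2 fold change -0.97, SE 0.16, adjusted p = 0.000953), and Hadh of beta-oxidation (-0.77, SE 0.10). Of 33 glycolysis and gluconeogenesis isozymes 5 rose and 5 fell. Hk1, a hexokinase of most other tissues, rose from 9.63, 7.08, 11.1 and 13.02 CPM to between 10.1 and 49.00 CPM (median 20.9, log2 fold change 1.21, SE 0.12, adjusted p = 4.3e-05), and Aldoa rose by 0.76 (SE 0.09) and Pfkp by 0.88 (SE 0.11). Gckr, the liver's glucokinase regulator (-0.69, SE 0.10), and G6pc, which releases glucose (-1.14, SE 0.16), fell.

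By contrast none of 27 oxidative phosphorylation genes was called (edgeR), 6 had an unadjusted p of at most 0.05, and DESeq2 called none (2 of 27 positive, log2 fold changes from -0.29 to 0.026, median -0.13). The median over the list was 0.20 in nodule 1 of F03 and -0.26 to -0.032 in the other 7 nodules. Without nodule 1 of F03, 16 had such an unadjusted p, and 11 without nodule 2 of H25, 12 with nodule 2 alone and 0 without H26, with no gene called in any of these. Fatty acid and cholesterol synthesis gave 1 gene higher and 1 lower, the elongase Elovl5 (-0.74, SE 0.12), out of 27. The count of lower genes rested on H25: without that rat, or without its nodule 2, 10 of the genes were called lower.

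Of 24 hepatocyte transcription factors 7 fell. The count was 3 or 4 without F03 or its nodule 1, H26 or H28 and with nodule 2 alone, 2 in the joint fit of both times and with each nodule as its own library, and 10 without H25 or its nodule 2, or without that nodule and nodule 1 of F03. Nr5a2, a nuclear receptor of bile acid and cholesterol genes, fell by 0.66 (SE 0.12), Klf15 by 0.59 (SE 0.12) and Foxa1 by 0.53 (SE 0.082), but Klf15 without H28 (-0.40) and Foxa1 without F03 or H28 (-0.50 and -0.48) were under the fold threshold. Nr5a2 was at -1.004 with nodule 1 alone. Hnf4a, the central factor of hepatocyte identity, did not pass: NT liver held 404, 391, 441 and 571 CPM, nodules lay from 284 to 489.8 CPM (median 363) and untreated liver at 755 to 952 CPM (log2 fold change -0.26, SE 0.10, adjusted p = 0.0694). Myc, the growth-promoting transcription factor, was 43.5, 49.5, 56.9 and 36.04 CPM in NT liver and from 50.9 to 77.8 CPM (median 61.4) in nodules, a difference that was significant but under the fold threshold (log2 fold change 0.43, SE 0.082, adjusted p = 0.00211). All 8 nodules were above their NT liver, and Myc reached the threshold without H25 (0.51). Only 1 of 26 Myc and nucleolar genes was called, the Myc antagonist Mxd3 (0.93, SE 0.23), and 3 were called without H25. Mxd3 was lost without H26 (adjusted p = 0.062).

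Growth factor genes were mixed, with 7 of 37 higher and 6 lower (4 and 3 without H26, 2 and 3 with nodule 2 alone). Tgfb2, a ligand of the TGF-beta family, rose from 1.03, 0.858, 2.27 and 1.95 CPM to between 1.995 and 6.79 CPM (median 3.94, log2 fold change 1.49, SE 0.15, adjusted p = 2.17e-05). Egf, the epidermal growth factor, fell from 12.8, 12.99, 10.6 and 8.62 CPM to between 1.77 and 10.9 CPM (median 4.95, log2 fold change -1.11, SE 0.14, adjusted p = 0.000373), and its receptor Egfr (-0.82, SE 0.18) and the neuregulin receptor Erbb3 (-0.80, SE 0.12) fell as well. All 8 nodules followed the direction for Tgfb2 and Egf, and 7 of 8 for Erbb3. Vegfa (-0.029) and Hgf (-0.31) did not pass.

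Matrix genes rose in 9 of 31 cases and none fell. Col1a1, the main fibrillar collagen, was at 10.8, 9.34, 10.6 and 17.05 CPM in NT liver and at 18.04 and 48.5 CPM in F03, 21.8 and 10.3 in H25, 29.6 and 39.6 in H26 and 30.7 and 33.3 in H28 (log2 fold change 1.29, SE 0.22, adjusted p = 0.00899). Every nodule was above its own NT liver, and 7 of 8 were above all of them, though the adjusted p was 0.0512 without F03. Col4a1 of the basement membrane (0.60, SE 0.078), the matrix protein Thbs1 (1.03, SE 0.13) and the protease inhibitor Timp1 (0.70, SE 0.13) rose, Thbs1 standing at 0.64 without passing when nodule 1 stood alone (adjusted p = 0.276), while Col3a1 (0.26) and Fn1 (-0.47) were not called. Of 13 markers of stellate cells and fibroblasts 3 were higher, Thy1 (1.48, SE 0.20), Col1a1 and Tagln (0.80, SE 0.21), and the summed level of the 14 present in the files was 765 to 906 CPM in NT liver and 719 to 948 CPM in nodules. Tagln was lost without F03 or H28 (adjusted p = 0.18 and 0.0518).

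Macrophage genes changed in both directions. Of 9 markers of infiltrating macrophages 5 were higher, with Mmp12, the macrophage elastase, going from 5.53, 4.26, 6.01 and 3.66 CPM to between 5.54 and 15.6 CPM (median 11.5, log2 fold change 1.18, SE 0.10, adjusted p = 5.91e-06), and with Cd9 (0.95, SE 0.15), Fabp5 (1.03, SE 0.14) and Gpnmb (0.62, SE 0.096). Mmp12 was higher in all 8 nodules, and Fabp5 was lost without nodule 1 of F03 and nodule 2 of H25 together (adjusted p = 0.0579). Some of these are not confined to macrophages, and Cd68 (0.0041) and Itgam (-0.25) did not pass. The list summed to 128 to 264 CPM in NT liver and 180.3 to 388 CPM in nodules. Of 9 Kupffer cell markers, Marco (181, 70.7, 87.95 and 102 CPM in NT liver, from 30.7 to 131 CPM with a median of 58.2 in nodules, log2 fold change -0.81, SE 0.18, adjusted p = 0.0176) and Vsig4 (-0.50, SE 0.11) were lower. Marco was lost without F03 or H26 (adjusted p = 0.13 and 0.0866) and with nodule 1 alone (-0.49, adjusted p = 0.0517), Vsig4 was under the fold threshold without F03, H26 or H28 (-0.44, -0.48 and -0.41), and Clec4f (-0.35) and C1qa (-0.03) were not called.

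Lymphocyte markers showed no call. The log2 fold change was positive in 3 of 15 T and NK cell markers (median -0.17) and in 1 of 4 B and plasma cell markers (median -0.22). None of 15 T and NK cell markers and none of 4 B and plasma cell markers passed with edgeR or with DESeq2, 2 of the former and 0 of the latter had an unadjusted p of at most 0.05, and the T and NK cell markers summed to 19.2 to 30.7 CPM in NT liver and 14.8 to 25.4 CPM in nodules. Ptprc, the CD45 antigen of leukocytes, was 24.3, 14.3, 18.8 and 25.4 CPM in NT liver and from 16.6 to 22.8 CPM (median 19.2) in nodules (log2 fold change -0.076, SE 0.11, adjusted p = 0.655). Of 17 antigen presentation genes 5 were higher, all of the class II pathway: its chaperone Cd74 measured 351, 159.5, 201 and 878 CPM in NT liver and 437 and 598 CPM in F03, 376 and 188 in H25, 327 and 353 in H26 and 825 and 1376 in H28 (log2 fold change 0.62, SE 0.11, adjusted p = 0.00115), and RT1-Bb (0.60, SE 0.10), RT1-Da (0.55, SE 0.11) and RT1-Ba (0.52, SE 0.10) rose too, although RT1-Da without H26 (0.49) and RT1-Ba without H25 or H26 (0.49 and 0.45) were under the fold threshold. For Cd74, NT liver of H28 lay above 7 of the 8 nodules, and without H25 or H26 3 or 2 genes of the list were called. In edgeR 0 of 16 were called with nodule 1 alone (8 at an unadjusted p under 0.05), 0 of 17 with each nodule as its own library (8 unadjusted) and 4 of 16 with nodule 2 alone, and DESeq2 with both nodules called 5.

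Chemokine and checkpoint genes gave single differences. Ccl20, which attracts cells bearing Ccr6, was low everywhere but separated the tissues fully (0.0357, 0.0613, 0.11 and 0.155 CPM in NT liver, from 0.226 to 0.886 CPM with a median of 0.328 in nodules, log2 fold change 2.24, SE 0.41, adjusted p = 0.00181). Cxcl16 rose by 0.83 (SE 0.085) and Cx3cl1 by 0.88 (SE 0.18), while Cxcl12, a chemokine of the liver stroma and endothelium, fell from 282, 301, 259 and 221 CPM to between 67.6 and 249 CPM (median 146, log2 fold change -0.86, SE 0.13, adjusted p = 0.00125). In total 6 of 28 chemokine and cytokine genes rose and 2 fell, with 3 rising without F03 or H26. Among 14 checkpoint genes Cd276 (0.78, SE 0.077) and the adhesion receptor Cd44 (1.02, SE 0.12) rose, and Cd274, which codes for PD-L1, fell (-0.90, SE 0.22) but was lost without H26 or H28 (adjusted p = 0.063 and 0.0589) and stood at -1.43 with nodule 1 alone (adjusted p = 0.0503). Interferon-stimulated genes were called higher in 2 of 24 cases, 8.33% against 9.21% of all tested genes. These were Isg20 (1.07, SE 0.14) and Oasl (0.57, SE 0.098), Oasl being under the fold threshold without H26 (0.49), and 4 of the list rose without H28. The 7 sinusoidal endothelium markers gave no call with edgeR or DESeq2 and none had an unadjusted p of at most 0.05. Of 10 markers of vascular endothelium 1 was called higher, the apelin receptor Aplnr (log2 fold change 1.46, SE 0.17, adjusted p = 6.28e-05), a share near the 9.21% of all tested genes.

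The 8 nodules were not equally far from the liver around them. Over the 1063 genes called higher, the median log2 ratio of a nodule to the NT liver of its rat was 0.30 in nodule 2 of H25, 0.43 in nodule 1 of H28 and 0.55 in nodule 1 of F03, and 0.62 to 0.98 in the other 5. Over the 630 genes called lower it was -0.11 in nodule 2 of H25 and -0.53 to -1.11 in the other 7, with nodule 2 of H28 farthest. These medians come from the libraries that chose the genes and are given as a description.

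The lists did not rank the nodules alike. Nodule 1 of H25 had the highest median of the mitosis genes (1.32), nodule 2 of F03 that of the preneoplastic markers (1.46) and of the matrix genes (0.67), and nodule 1 of H28 that of DNA replication (0.83) although its preneoplastic markers had a median of -0.062. Nodules 1 and 2 of H26 stood out in the oncofetal list with 1.20 and 0.98, against at most 0.37 in the other 6. The loss of sex-biased genes was deepest in nodule 2 of H28 (-1.60) and nodule 2 of H26 (-1.47). In nodule 2 of H25 the urea cycle list was at 0.052 and the hepatocyte transcription factors at 0.028.

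**Figure D3:**
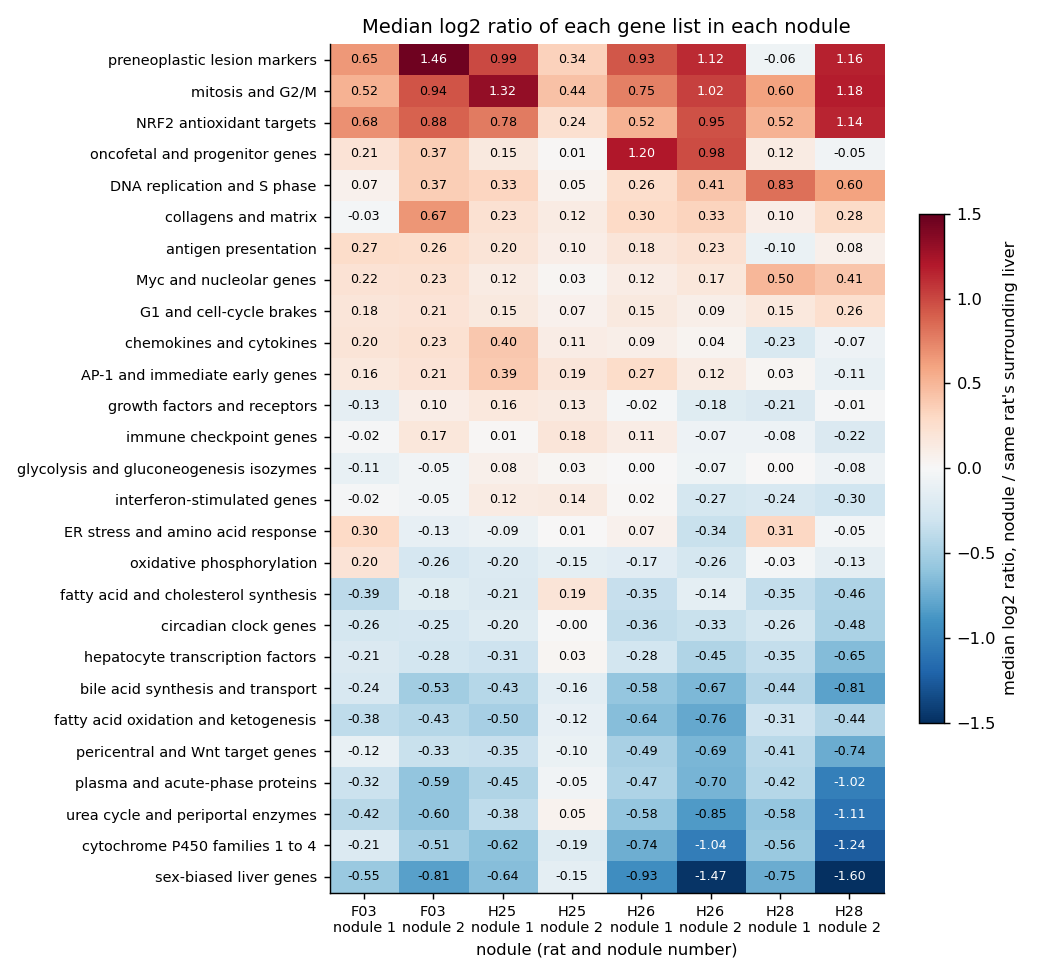
Median log2 ratio of each gene list (rows, ordered as in the plot of called shares) in each nodule (columns) to the NT liver of the same rat, red for higher and blue for lower. Nodule 2 of H25 has 0.44 for mitosis genes and -0.15 for sex-biased genes, and nodule 2 of H28 has the deepest blue, down to -1.60.

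NT liver of the 4 rats also differed. For Gstp1, Ggt1, Nqo1, Ccnb1 and Mki67, NT liver of H26 and H28 was above that of F03 and H25, and for Cyp2c11 NT liver of H28 was the lowest. The fold changes above are therefore relative to a tissue that itself differed between rats, and the deviations of nodules and NT liver from their tissue means went together within each rat (Pearson r over genes 0.52 to 0.61).

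At 14 weeks the same comparison in 4 other rats (F06, H21, H22 and H23) called 0 of 11466 genes (0%). There 2518 genes had an unadjusted p of at most 0.05, and the smallest adjusted p was 0.167. DESeq2 called 397 genes in the same samples, and edgeR called 300 without F06. Nodule 1 of F06 stood apart, with 34.5% of its pairs in no feature against 22.95 to 28.2% in the other 11 libraries of that time, and the fewest counted pairs (20528515). With nodule 2 alone standing for that rat edgeR called 0 of 11340 genes, with 3108 at an unadjusted p of at most 0.05. Since no overlap in rats links the times, the fold changes could be set against each other. Over 11400 genes tested at both times Pearson's r was 0.65 and Spearman's rho 0.64, which is across genes and not across replicates. Of the 1055 genes called higher at 20 weeks that were tested at 14 weeks, 953 had a positive log2 fold change there, with a median of 0.35 against 0.92 at 20 weeks. Of 625 called lower, 605 were negative at 14 weeks, with a median of -0.41 against -0.66. These genes were chosen on their 20-week values, and the 14-week values were not.

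The difference between the times was tested directly. Of 11781 genes, 53 (0.45%) had a log2 fold change that differed between 20 and 14 weeks at an adjusted p of at most 0.05, and for all 53 it was higher at 20 weeks. Members of the mitosis and G2/M list made up 17 of the 53, and the 53 held further mitotic genes that the list lacks, such as the kinesins Kif2c and Kif20b, Incenp and Nuf2. For Ccnb1 the difference was 1.14 (SE 0.099, adjusted p = 0.00271), with log2 fold changes of 1.36 at 20 weeks and 0.22 at 14 weeks. For Kif20a it was 1.13 (SE 0.11, adjusted p = 0.00297) and for Prc1, a protein of the central spindle, 0.88 (SE 0.086, adjusted p = 0.00297). Genes outside the cell cycle in this set included Ppl, the desmosomal linker periplakin, at 1.13 (SE 0.10, adjusted p = 0.00271), and the tubulin Tubb6 at 1.34 (SE 0.14, adjusted p = 0.00395). The collagen receptor Ddr1, at a difference of 1.52, tied with Ckap2 for the sixth smallest adjusted p.

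The levels at both times stand behind this difference. Ppl was at 5.14, 5.97, 10.4 and 15.1 CPM in NT liver and from 8.12 to 35.3 CPM (median 18.4) in nodules at 20 weeks, while at 14 weeks it averaged 20.2 ± 7.45 CPM in NT liver and 21.1 ± 7.58 in nodules (SD, n = 4). Ccnb1 averaged 23.04 ± 8.07 CPM in NT liver and 26.5 ± 8.88 in nodules at 14 weeks, against 6.37 ± 3.82 and 15.7 ± 7.71 at 20 weeks. For both genes the mean of NT liver was lower at 20 than at 14 weeks, and that of nodules was no higher. None of 20 lesion markers tested was among the 53, which made up 0.45% of all genes tested. At that share a list of 20 cannot tell whether the markers differ from other genes. The median difference of these markers was 0.63, with Gstp1 at 0.59 (SE 0.30, adjusted p = 0.439) and Ggt1 at 0.98 (SE 0.25, adjusted p = 0.142).

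The number of such genes moved with single rats and with single libraries. It was 7 without F03 or H21, 9 without H25 or H22, 8 without H26, 13 without H28, 42 without H23 and 187 without F06. With nodule 1 alone in place of the added nodules it was 0, with nodule 2 alone 1658, and without the rat as a block 0. It was 95 without nodule 1 of F03, 99 without nodule 2 of H25 and 360 without both, and 152 without nodule 1 of F06, 1 of them lower at 20 weeks. Rats were not shared between the times, and the nodule numbers 1 and 2 carry no stated order.

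**Figure D4:**
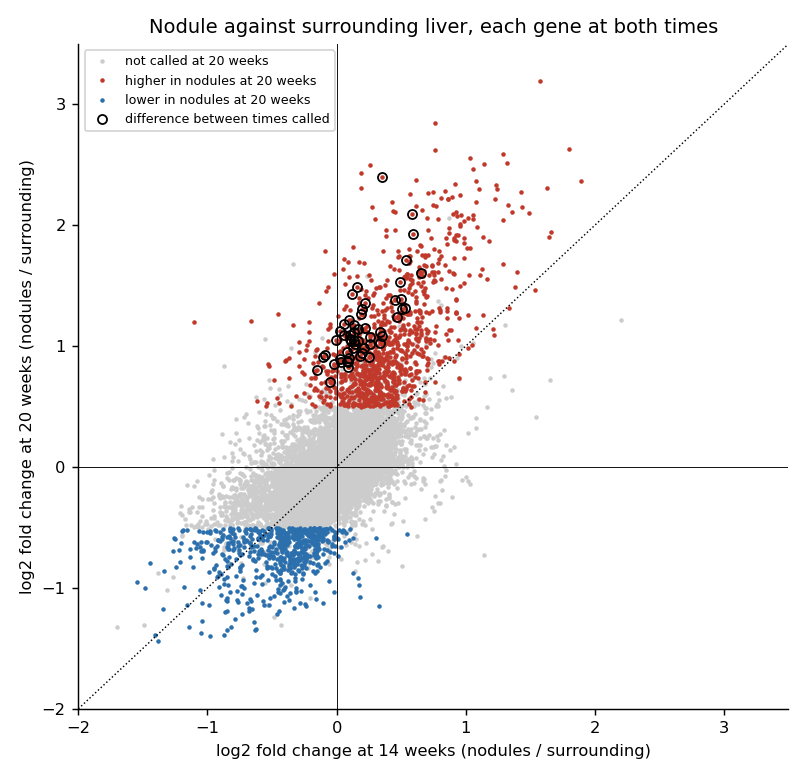
Log2 fold change of nodules over NT liver at 14 weeks (horizontal axis) and 20 weeks (vertical axis) for the 11400 genes tested at both times, with genes called at 20 weeks in color, open circles around genes whose difference between the times was called, and a dotted line of equal change. Called genes lie on the same side of 0 at both times in 92.7% of cases (73.1% of all genes) and the 53 circled genes lie above the dotted line.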

How the data were processed

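Total RNA of liver and nodules was made into stranded mRNA libraries and sequenced as 75 bp read pairs. Per the labels and the study's methods, the authors aligned the reads with STAR 2.7.1a to rn6 and deposited raw counts of read pairs per gene symbol for each library, made with HTSeq on exons and the reverse strand, with pairs aligned to several places left uncounted. Paralogs of the P450, glutathione transferase and RT1 families are therefore uncertain. The summary lines at the end of each file were removed, which left 17337 genes.

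Both nodules of an animal were pooled by adding their counts and compared with NT liver in edgeR 4.0.16 (R 4.3.3) with filterByExpr, TMM scaling, the quasi-likelihood test and the rat as a block, and p-values were adjusted by Benjamini and Hochberg. Every adjusted p comes from this fit unless DESeq2 1.42.0 is named. Samples were paired by the animal named in the labels, and the deviations of NT liver and nodules from their means correlated within each rat (r 0.605, 0.553, 0.610 and 0.520 at 20 weeks, and 0.548, 0.467, 0.587 and 0.385 at 14 weeks). The test of the difference between the times used both sets of 4 rats in 1 fit. CPM were scaled by TMM over 28 libraries, the mean ± SD of nodules uses the mean CPM of the 2 nodules of a rat (n = 4), and single-nodule log2 ratios add 0.5 CPM. Both fits were tested on simulated data.

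The members and gene lists were chosen with earlier results of these data known, so list counts are descriptions. Named genes are the 12 largest rises and 12 largest falls (at least 1 CPM in the higher tissue, same direction in 4 of 4 rats), up to 4 called members per list with the smallest adjusted p, 15 genes given whether called or not, and the 6 genes with the smallest adjusted p between the times (the last tied with Ddr1). Other genes were named after their values were seen, among them Slc7a11, Aldh3a1, Spink1, Kif11, Cyp2c12, Egfr, G6pc, Abcb11, Rhbg and all list members given as not called. Promoter sequences are RefSeq, build GRCr8, matched by symbol. Alternatives were no block, DESeq2, RLE scaling, no filter, other fold thresholds, single nodules, a joint fit of both times, NT liver of H26 thinned, and each rat left out. Leaving out nodule 1 of F03, nodule 2 of H25, both, or nodule 1 of F06 was added after seeing the data.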

Additional observations from a re-analysis of the deposited data

Results flagged for a closer look

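Among 92 groups of libraries checked for a value far from the rest, covering 44 genes and the library measures, 11 held one. The cutoffs give about 1 in 20 only for independent and normally distributed values. Here nodules came 2 per rat and CPM were not logged, so the count is a description and cannot be set against that rate. Nodule 2 of H28 was far above the other 7 nodules in Dnaaf1 (237 CPM, next 88.7), Misp (6.98 CPM, next 2.23), Vwa7 (22.6 CPM, next 10.9) and Ccnb1 (33.9 CPM, next 18.5). Nodule 1 of H28 was far above in Ly6i (15.7 CPM, next 4.52) and nodule 1 of H26 in Afp (59.0 CPM, next 38.1). Nodule 2 of H25 was far above in genes that fell elsewhere, Rgs16 (5.28 CPM, next 1.83) and Cyp4a2 (436 CPM, next 199). NT liver of H28 stood above the other 3 in Gpc3 (5.89 CPM, next 1.93). NT liver of H26 had 160622633 counted pairs (next 37281326), and nodule 1 of F03 had 16.3% of pairs aligned to several places (next 10.9%).

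The nodule effect differed between 20 and 14 weeks, by the test of the difference itself, for 53 genes. The 6 with the smallest adjusted p had a log2 difference of 1.14 (Ccnb1), 1.13 (Ppl), 1.13 (Kif20a), 0.884 (Prc1), 1.34 (Tubb6) and 0.997 (Ckap2), each higher at 20 weeks. Ddr1 (1.52) had the same adjusted p as Ckap2.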

How the results depend on the processing

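Each time had 4 rats, and thinning the deep NT liver of H26 gave 1605 genes at 20 weeks. The 1693 genes called there became 0 with no replicate block, 1009 with nodule 1 alone, 1041 with each nodule as its own library, 542 at a log2 fold threshold of 1 and 3378 with no fold threshold, and 1070 to 2078 when a rat was left out. At 14 weeks the 0 genes became 397 with DESeq2, 1 with each nodule as its own library and 0 to 300 when a rat was left out. The 53 genes that differed between the times became 0 with no replicate block, 240 with DESeq2, 0 with nodule 1 alone, 1658 with nodule 2 alone, 95 without nodule 1 of F03, 99 without nodule 2 of H25, 360 without both, 152 without nodule 1 of F06, and 7 to 187 when a rat was left out. The other settings for these 3 counts stayed within 1.5 times. Of 142 named genes 2 changed sign under any of 16 settings, Afp (-0.028 with nodule 2 alone, -0.049 without H26 and 0.32 without H28, the range over left-out rats) and Ptprc (-0.22 without H25 and 0.033 without H28, its range over left-out rats, and 0.021 without both libraries), neither of which was called. Calls of single genes moved more often than signs. Of 135 named genes called at 20 weeks, 64 kept the call in each of 15 settings with the block wherever they were tested. The call was lost by 135 with no block, 50 of 132 with nodule 1 alone, 34 with each nodule as its own library, 27 of 133 with nodule 2 alone, 26 of 134 without H26, 17 without H28, 14 without F03 and 1 to 6 under each other setting. The log2 fold change of 15 moved by over 1.5 times, with nodule 1 alone Npy1r (0.92), Akr1b10 (0.67), Stac3 (-0.83), Mest (0.19), Slc25a15 (-0.997), Nr5a2 (-1.004), Hnf4g (-0.99), Npas2 (-0.36), Thbs1 (0.64), Cd274 (-1.43), Ttr (-0.35), Cldn4 (0.70), Marco (-0.49) and Gpc3 (0.74), with nodule 2 alone Stac3 (-2.14) and Slc25a15 (-0.39), without H28 Mest (0.36), Axin2 (-0.38) and Ttr (-0.37), and without H26 Cldn4 (0.70). Each of these values missed the call except those of Stac3 and, with nodule 1 alone, Slc25a15 and Nr5a2. Several lists moved with the use of the nodules. With nodule 1 alone 3 matrix genes (9 with both nodules), 2 infiltrating macrophage markers (5), 4 S phase genes (11), 2 AP-1 and immediate early genes (5), 3 chemokine and cytokine genes (6) and 4 growth factor genes (7) were higher, and 7 plasma protein genes (14) and 6 of fatty acid and cholesterol synthesis (1) lower. With nodule 2 alone 5 S phase genes, 3 AP-1 genes, 2 chemokine genes and 2 growth factor genes were higher, and 2 plasma protein genes, 3 urea cycle genes (9), 3 pericentral genes (7), 3 growth factor genes (6) and 3 hepatocyte transcription factors (7) lower. With each nodule as its own library 6 S phase genes, 2 chemokine genes and 4 growth factor genes were higher, and 13 P450 genes (23), 7 of fatty acid oxidation (12), 6 plasma protein genes and 3 urea cycle genes lower. Glycolysis and gluconeogenesis isozymes (5 higher and 5 lower) gave 3 of each with nodule 1 alone or each nodule as its own library. The causes were not tested.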
